A study of Pinus pinaster with 8 samples.

Results

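The positions described here are the strongly positive end of a maritime pine (Pinus pinaster) xylem array, the side on which transcripts were likely higher in opposite xylem than in compression xylem. They were chosen by their own measured log2 ratios. After every array had been turned to one direction, a position was taken where the plain mean of its 8 ratios was at least 1 and each of the 8 was above 0. The rule was met by 110 of the 4223 positions of the array, or 2.6%.

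A conifer stem that leans lays down reaction wood, called compression wood, along its lower side. Its tracheids are rounded and thick-walled, its walls hold more lignin and less cellulose than those of normal wood, and it pushes the stem back towards the vertical. Opposite wood is laid down at the same time on the upper side of the same stem, in cells of the same cambium, and its tracheids keep straight sides and are less lignified. A comparison of both sides within a tree therefore sets more against less lignin deposition while genotype, age and site stay the same.

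Compression xylem (Cx) and opposite xylem (Ox) came from 4 field-grown adult trees, labelled as 25, 35, 28 and 28 years old, whose stems had been bent by 45 degrees for 2 months. There was no unbent tree among the samples, so that both sides carried the same bending and neither is a measure of normal wood. RNA of developing secondary xylem was amplified and labelled, and Cx and Ox were hybridised together on each array. In 4 arrays Cx was in Cy3 and Ox in Cy5, and in the other 4 the dyes were exchanged, giving groups called here Cx in Cy3 and Cx in Cy5, each numbered from 1 to 4 after the trees. The probes were cDNA clones drawn from subtractive libraries, which are enriched for transcripts that differ between the RNAs subtracted, so that shares of positions given here are not shares of the genes of the pine.

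Every one of the 8 arrays held a value for all 4223 positions, the medians of the arrays were -0.03 to 0.003 (log2), and SDs across positions were 0.65 to 0.76. Neighbouring replicates of one group (1 with 2, and 3 with 4) were close copies of each other across positions (Pearson's r of 0.92 to 0.95), whereas other arrays of one group correlated at 0.78 to 0.85 and arrays of the same tree number in both groups at 0.65 to 0.81, after turning. Slides carried 2 copies of the array, and 4 hybridisations were described for 8 columns of values, but which columns share a slide is not stated in the sources used here. The 2 columns of such a neighbouring pair may therefore not be independent. Fits with column pairs as units join them, while fits with tree means or single arrays count them separately. Values are given for all 8 arrays, and the spread is given over the 4 column pairs as well as over the 4 tree numbers. The labels and the methods name 4 different trees, but with columns that may share a slide, p-values measure only the spread between these arrays, part of which may be technical.

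The direction of the ratio is not given in the table of values. The methods define it as a ratio between Cy3 and Cy5 without settling which is on top. In the usual convention of the software used, Cy5 stands over Cy3, which on arrays with Cx in Cy3 is Ox over Cx, and the plot legends and supplementary headings of the study give the fitted values as Ox over Cx. The study also describes an excess of spots higher in Cx, and the negative side was the longer one here, with 272 positions under the mirror image of the rule (6.44% of positions). A positive turned ratio is thus called likely higher in Ox. With the opposite order of the channels every sign below would be turned, while counts and sizes would stay.

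The identifiers are plate coordinates, which none of the tables used here pairs with clones, and no gene name or sequence is given for that reason. Only the pair of members with the highest means are printed by identifier, and the others are called by their rank by mean ratio and by their plate. The cell identity of the tissue could not be checked with marker genes.

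The 110 members had a median mean ratio of 1.51, which is a 2.84-fold difference, with quartiles of 1.20 and 1.85. The mean was at least 1.5 in 56 members, at least 2 in 21 and at least 3 in 3. The set was thus mostly one of differences of moderate size with a short upper tail. The 10 members with the highest means held 16.9% of the summed mean ratio of all members. On the negative side, the median was -1.46, a 2.75-fold difference in the other direction, and 70 of 272 positions (25.7%) were at -2 or beyond, against the 21 of 110 members (19.1%) at 2 or above. All positions together had a median of 0.03 (SD 0.64).

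The highest member was Q10L17, with a mean of 4.70, or 26.0-fold. Its turned log2 ratios were 3.99, 3.91, 5.12 and 5.23 with Cx in Cy3, and the arrays with Cx in Cy5 gave 5.08, 5.01, 4.78 and 4.48. Replicates 1 and 2 of Cx in Cy3 were its lowest arrays, and replicates 3 and 4 of the same orientation its highest, with the 4 arrays of Cx in Cy5 between them.

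The next member was Q8G18, with a mean of 3.42 and a 10.7-fold difference. Its ratios were 2.59, 2.56, 3.41 and 3.37 with Cx in Cy3, and 3.87, 3.87, 3.92 and 3.77 with Cx in Cy5. The orientations did not overlap for this position, and replicates 1 and 2 with Cx in Cy3 were again the lowest. The SD of the mean over the 4 column pairs was 0.55 for Q10L17 and 0.61 for Q8G18, and over the 4 tree numbers, in which orientations are averaged, 0.24 and 0.23.

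The members of ranks 3 to 10 had means of 3.08, 2.94, 2.88, 2.73, 2.64, 2.58, 2.50 and 2.47. They came from plates 1, 7, 5, 8, 1, 8, 10 and 8, and neighbours among them differed by less than their own SD over column pairs (0.34 to 1.12), so that their order from one rank to the next is loose. Q10L17 was above each of the other 9 highest members on all 8 arrays, and Q8G18 was above 4 of the members of ranks 3 to 10 on all 8. The members of ranks 5 and 9 were the least even of them. The member of rank 5 had ratios of 1.08, 1.35, 3.35 and 3.49 with Cx in Cy3 and of 3.44, 3.75, 3.06 and 3.52 with Cx in Cy5, so that its mean of 2.88 understated 6 arrays and overstated the other 2. The member of rank 6 was more even, with ratios of 2.75, 2.78, 2.19 and 2.42 with Cx in Cy3 and of 3.14, 3.19, 2.76 and 2.60 with Cx in Cy5.

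**Figure D1:**
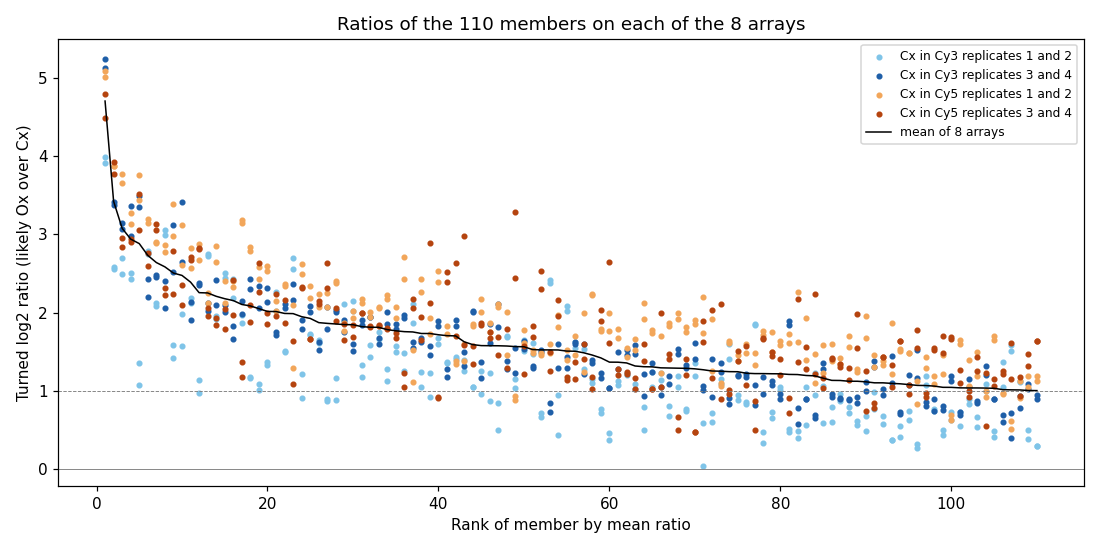
Turned log2 ratio (vertical axis, likely Ox over Cx) of each of the 110 members, ordered by rank along the horizontal axis, with 1 point per array coloured by column pair and a line for the mean of the 8 arrays. The means drop steeply over the first 10 ranks and then slowly to 1.00, and the points of Cx in Cy3 replicates 1 and 2 lie mostly under the line.

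At the limit of the rule there was no gap. The 5 members just inside had means of 1.004, 1.005, 1.012, 1.014 and 1.016, and the 5 positions just outside had means of 0.993, 0.991, 0.990, 0.985 and 0.985. Between them the rule cut through a continuous distribution, and with a limit of 1.5-fold in place of 2-fold, 294 positions would have been taken.

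The demand for the same sign on all arrays removed 3 of 113 positions. Of these, 2 lie on plate 9 and had means of 1.46 and 1.40. The first of them was at -0.04 and 0.10 on the first 2 replicates of Cx in Cy3, above 2 on the other two of that orientation, and at 2.39, 2.27, 1.43 and 1.31 with Cx in Cy5. The second had nearly the same profile, and their largest difference on any array was 0.21. The remaining one, on plate 11, had its mean of 1.02 from a single array at 5.45, and 3 of its ratios were at or below 0.

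The rule asks for the mean and the sign only, so a member can lie near 0 on some arrays. All 8 ratios were at least 1 in 49 members, exactly 7 were in 9, 6 in 20, 5 in 11 and 4 in 21, and no member had fewer. A ratio under 0.5 on some array was found in 18 members. All 8 ratios were at least 1 in 20 of the 21 members with a mean of 2 or more (95.2%), in 23 of the 35 with a mean of 1.5 to under 2 (65.7%) and in 6 of the 54 below that (11.1%), which largely follows from how far each mean lay above 1. The SD over the 4 column pairs had a median of 0.47 in the first of these classes, 0.42 in the next and 0.41 in the lowest.

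The lowest single ratio was 0.05, in the member of rank 71 on plate 8. Its ratios with Cx in Cy3 were 0.59, 0.05, 1.06 and 1.01, and with Cx in Cy5 they were 1.74, 2.20, 1.89 and 1.62. Its orientations did not overlap, and all 4 arrays with Cx in Cy5 were above its mean of 1.27. The most even member over column pairs was that of rank 57 on plate 6, with an SD of 0.10, although its single arrays ranged between 1.22 and 1.99. The member of rank 29 on plate 2 was even in both respects, with ratios of 2.11, 1.87, 1.75 and 1.91 with Cx in Cy3 and of 1.76, 1.86, 1.65 and 1.85 with Cx in Cy5.

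The 2 columns of a pair agreed closely in most members. The median size of the difference within a pair was 0.11 in members, 0.12 on the negative side and 0.10 over all positions. Every within-pair difference was at most 0.25 in 58 members. A difference over 0.5 occurred 27 times among the 440 pairs of values, in 21 members, and 15 of the 27 were between replicates 3 and 4 with Cx in Cy5. The largest was 1.38 and belonged to the member of rank 43 on plate 3, which stood at 2.97 on replicate 4 with Cx in Cy5 and between 1.26 and 1.60 on the other arrays.

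Between column pairs the members varied more. The SD over the 4 column pairs had a median of 0.42 and ranged between 0.10 and 1.12, and divided by the mean ratio its median was 0.29 in members and 0.21 on the negative side. The highest SD was that of the member of rank 5 given above. It was followed by the member of rank 49 on plate 1, which stood at 1.04, 1.16, 1.55 and 1.23 with Cx in Cy3 and at 0.88, 0.93, 3.29 and 2.44 with Cx in Cy5. In this member the excess was on the pair of replicates 3 and 4 with Cx in Cy5, so that uneven members were not all uneven in the same way.

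By array, the median of the members was 1.11, 1.20, 1.47 and 1.42 with Cx in Cy3, and it was 1.77, 1.77, 1.66 and 1.62 with Cx in Cy5. The number of members at 1 or above was 65, 71, 84 and 88 with Cx in Cy3, and it was 105, 103, 98 and 100 with Cx in Cy5. All 4 arrays with Cx in Cy3 thus had lower member medians than all 4 with Cx in Cy5, and replicates 1 and 2 had the lowest of all. These were also the arrays with the smallest spread. The median absolute deviation across all positions was 0.21 and 0.23 on those 2, against 0.29 to 0.34 on the other 6. With all arrays brought to the same median absolute deviation, the column pair of replicates 1 and 2 with Cx in Cy3 was no longer the lowest. Its member median was then 1.46, against 1.32 for replicates 3 and 4 of that orientation, and with Cx in Cy5 the medians were 1.72 for replicates 1 and 2 and 1.44 for replicates 3 and 4. Under quantile normalisation replicates 1 and 2 with Cx in Cy3 stayed the lowest pair, at 1.43 against 1.47 to 1.54. With each array centred they stayed the lowest as well, at 1.12. When both orientations of a tree number were averaged, the medians of the members were 1.40, 1.48, 1.49 and 1.49, an SD of 0.05 over the 4 numbers. Each average joins an array with Cx in Cy3 to one with Cx in Cy5, the lowest to the highest. The small SD thus partly follows from the averaging and does not show that trees were alike.

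**Figure D2:**
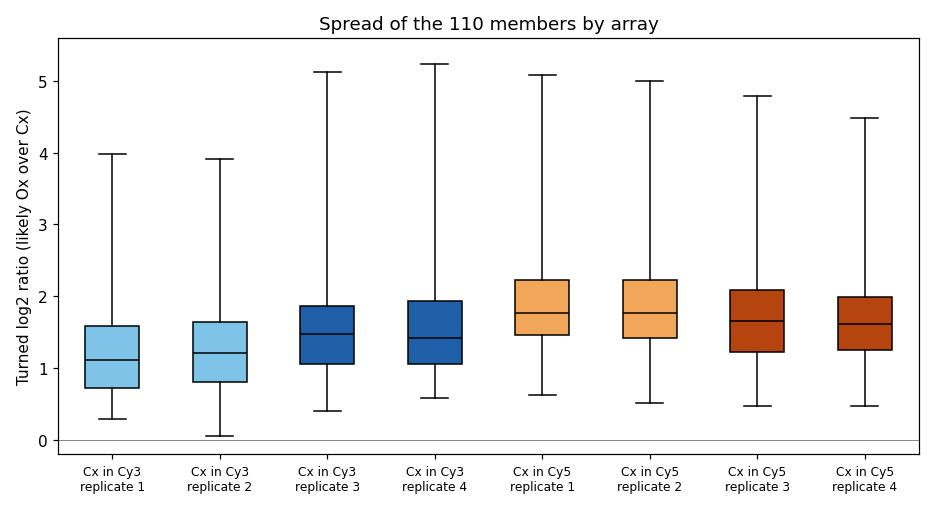
Box plots of the turned log2 ratios of the 110 members (vertical axis, likely Ox over Cx) on each of the 8 arrays, where boxes span the quartiles, lines are medians and whiskers reach the lowest and highest member. The medians lie between 1.11 and 1.47 with Cx in Cy3 and between 1.62 and 1.77 with Cx in Cy5.

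For single members the same order was frequent. Of the 4 column pairs, replicates 1 and 2 with Cx in Cy3 gave the smallest value in 64 members (58.2%), replicates 3 and 4 with Cx in Cy3 in 22, replicates 1 and 2 with Cx in Cy5 in 5 and replicates 3 and 4 with Cx in Cy5 in 19. The 64 became 46 under quantile normalisation and 39 with equal median absolute deviations of the arrays. Just under the limit of the rule lay 184 positions with 8 ratios above 0 and a mean from 1.5-fold to under 2-fold. Replicates 1 and 2 with Cx in Cy3 were smallest in 54.9% of them, a share near that of the members. Replicates 1 and 2 with Cx in Cy5 gave the largest value in 61 members (55.5%). On the negative side the pair with Cx in Cy3 and replicates 1 and 2 was smallest in size in 50 of 272 positions (18.4%) and largest in 112 (41.2%), so that as deposited this pair did not have smaller ratios throughout. Replicates 1 and 2 stood below replicates 3 and 4 in 80 members (72.7%) with Cx in Cy3 and above them in 77 (70%) with Cx in Cy5. By size of the ratio, the negative side had these orders in 84 (30.9%) and 184 (67.6%) of its positions. The order with Cx in Cy5 was thus not particular to the members. As deposited, the same replicates were ahead in both orientations in 45 members (40.9%) and in 134 positions of the negative side (49.3%). The order depended on the scale of the arrays. With equal median absolute deviations, replicates 1 and 2 had the higher member median in both orientations. With quantile normalisation they had it with Cx in Cy5 only.

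Whether replicates 1 and 2 of a position differed from replicates 3 and 4 of the same orientation, beyond the difference within these column pairs, was tested over all positions with limma's moderated F test. The test covers both orientations but not the difference between them. With a limit of 0.05 on the adjusted p, it called 75 of the 110 members (68.2%), against 1643 of all 4223 positions (38.9%). On the negative side it called 192 of 272 (70.6%), a share close to that of the members. In 60 of the 75 members called, replicates 1 and 2 were below replicates 3 and 4 with Cx in Cy3, an order found in 80 of all 110 members (72.7%). This order was not counted among all positions called, so nothing is read from it. Both Q10L17 (adjusted p = 0.00139) and Q8G18 (adjusted p = 0.00152, limma) were among those called. The rule bounds the mean and the signs but not this contrast, although larger ratios leave more room for a difference. The residual of this test is only the difference of neighbouring columns. The count was 22 without replicate 1 and 26 without replicate 2, with 281 and 266 of all positions called.

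The dye effect is the name used here for the difference between orientations (Cx in Cy3 minus Cx in Cy5) divided by 2. With columns that may share a slide, it cannot be told apart from differences between slides, trees or array scales. It cancels in the mean that chose the members, and the rule asked for no sign of it. The SD across positions was 0.65 to 0.70 on arrays with Cx in Cy3 and 0.72 to 0.76 with Cx in Cy5. Whether a high mean over both favours positions that are larger with Cx in Cy5 was not tested, so the values below are a description only. Its median was -0.21 over the members, 0.01 over the negative side and -0.04 over all positions. The turned ratio was smaller with Cx in Cy3 in 93 members (84.5%), whereas 58.5% of all positions had a dye effect below 0. Of the 184 positions with 8 ratios above 0 and a mean from 1.5-fold to under 2-fold, 83.2% were larger with Cx in Cy5. The trait was thus not particular to the members. The median of the absolute ratio was 1.30 with Cx in Cy3 against 1.66 with Cx in Cy5 in members, and 1.46 and 1.49 on the negative side. The members' positive ratios, likely Ox over Cx, were thus mostly larger with Cx in Cy5, and the negative side had about the same size in both orientations.

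This difference depended on the scale of the arrays. With all arrays brought to the same median absolute deviation, 63 of the 110 members were larger with Cx in Cy5 (57.3%, against 59.8% of all positions) and the median dye effect was -0.08. With quantile normalisation these became 59 members (53.6%, against 50.9% of all positions) and -0.024. Centring each array on its median left 92 members and -0.19.

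No single position had a dye effect that passed the test with column pairs as units. At an adjusted p of 0.05 or less in limma, 0 members were called and 0% of all positions, where the smallest adjusted p was 0.243. At an unadjusted p of at most 0.05 there were 35 members (31.8%) and 721 of all positions (17.1%). When the 4 tree means were the units, 19 members (17.3%) and 442 of all positions (10.5%) passed, and on the negative side 27 (9.93%). Neighbouring columns count as separate units in that fit. For Q10L17 the dye effect was -0.14 (SE 0.22), and for Q8G18 it was -0.44 (SE 0.15, limma adjusted p = 0.27).

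The dye effect had a range of -0.65 to 0.46 over the members and reached a size of 1.5-fold in 3 of them (2.73%), against 46 of all positions (1.09%). The most negative value was that of the member of rank 82 on plate 10, with ratios of 0.49, 0.40, 0.79 and 0.58 with Cx in Cy3 and of 2.26, 1.62, 2.17 and 1.37 with Cx in Cy5. Its orientations did not overlap. The most positive was that of the member of rank 23 on plate 3, with ratios of 2.70, 2.55, 2.16 and 2.36 with Cx in Cy3 and of 1.30, 2.09, 1.09 and 1.63 with Cx in Cy5, which did not overlap either.

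**Figure D3:**
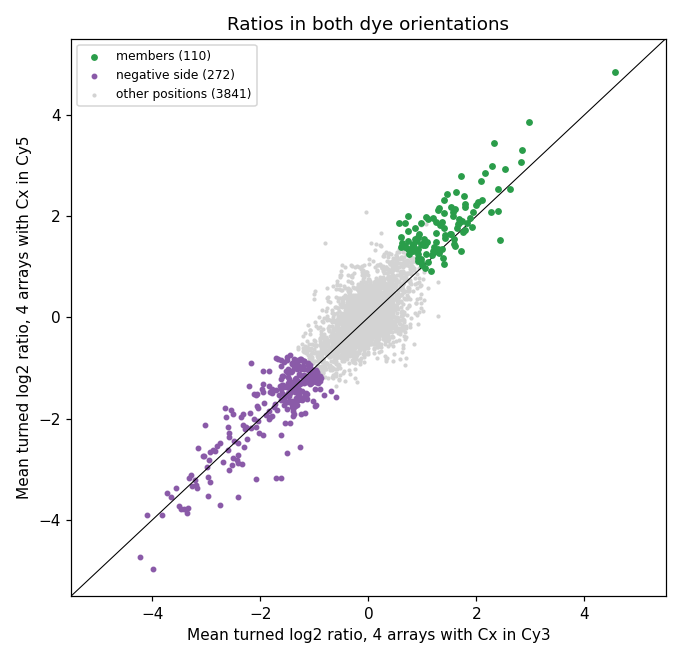
Mean turned log2 ratio of each position over the 4 arrays with Cx in Cy3 (horizontal axis) and over the 4 with Cx in Cy5 (vertical axis), for the members, the negative side and all other positions, with the line of equal values. Of the 110 members, 93 lie above the line, and 52.2% of the negative side had the larger size with Cx in Cy5, which there is below the line.

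Across the 110 members, the means of both orientations correlated with an r of 0.80 and a rho of 0.65. These are correlations over positions that share the same arrays, which are not independent replicates, and the rule cut the range of the values. On the negative side the coefficients were 0.85 and 0.68.

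The rule used all 8 arrays, so it was also applied to some arrays and the chosen positions were read on the others. On Cx in Cy3 alone, 83 positions met it, 76 of them members. Their median ratio was 1.52 on the arrays that chose them and 1.85 on the arrays with Cx in Cy5 that did not. On these held-out arrays all 4 ratios were above 0 in 78 of the 83 (94.0%), against 35.2% of all positions, and 74 (89.2%) met the rule there, against 4.85% of all positions. Positions with positive ratios in one orientation thus mostly had positive ratios in the other. By the labels, both orientations hold the same 4 trees. The held-out arrays, here and in the splits below, are therefore not a replication in other trees.

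The same split the other way gave lower values. On Cx in Cy5 alone, 205 positions met the rule, 108 of them members, with a median of 1.33. Their median on the arrays with Cx in Cy3 was 0.81, with quartiles of 0.52 and 1.37. All 4 held-out ratios were above 0 in 179 of them (87.3%), against 30.3% of all positions, and 74 (36.1%) met the rule, against 1.97% of all positions. The sign held nearly as often in this split, while the size of at least 1 held less often. Under quantile normalisation the medians on held-out arrays were 1.36 for positions chosen with Cx in Cy3 and 1.15 for those chosen with Cx in Cy5, and with equal median absolute deviations they were 1.51 and 1.01.

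Holding out 1 column pair at a time, the rule was applied to the other 6 arrays. Without replicates 1 and 2 with Cx in Cy3 it took 142 positions, whose median on that pair was 0.90, and 68 (47.9%) met it there, against 2.15% of all positions. Without replicates 3 and 4 with Cx in Cy3 it took 124, with a held-out median of 1.31, and 83 (66.9%) met it, against 2.98% of all positions. For replicates 1 and 2 with Cx in Cy5 the held-out median was 1.80 and 90 of 100 met it, against 4.83% of all positions. For replicates 3 and 4 with Cx in Cy5 it was 1.67 and 85 of 100 met it, against 5.16% of all positions. Both ratios of the held-out pair were above 0 in 93.7% to 99% of the chosen positions. Column pairs with higher member medians had higher held-out medians as well.

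**Figure D4:**
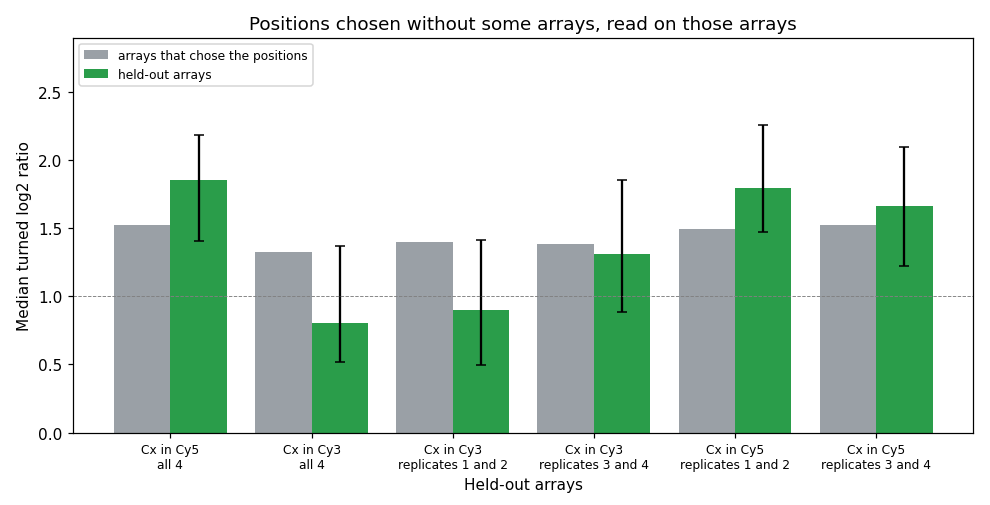
Median turned log2 ratio (vertical axis, likely Ox over Cx) of positions that met the rule without the arrays named on the horizontal axis, on the arrays that chose them (grey) and on the held-out arrays (green, with quartiles as bars). Held-out medians lie between 0.81 and 1.85, and the 2 lowest are those of Cx in Cy3 (0.81) and of its replicates 1 and 2 (0.90).

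The xylem contrast itself was fitted over all positions with the limits of the study, an adjusted p of at most 0.001 and at least 1.5-fold. Since the rule chose members on this contrast, the counts are printed with nothing read from them. With the 4 tree means in limma's robust fit, 86 members were called, and 182 of all positions on the positive side (4.31%). Neighbouring columns, which may share a slide, count as separate units in this fit of tree means. With the 4 column pairs as units, 33 members were called, and 33 of all positions (0.781%). Of these 33, 15 were in the 21 members with a mean of at least 2, 15 in the 35 with a mean of 1.5 to under 2, and 3 in the 54 below.

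The members were unevenly spread over the source plates, which the rule did not use. Identifiers were read as a plate number between 1 and 11, a row letter (16 rows) and a column number (24 columns). Plates 1 to 11 held 15, 13, 13, 4, 3, 5, 4, 16, 14, 15 and 8 members, and 14, 5, 29, 61, 52, 39, 11, 16, 16, 12 and 17 positions of the negative side. Plates 4, 5 and 6 had few members where the negative side was most frequent. These plates were put together after the counts had been seen, so no test was made.

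Plates 4 to 6 carried 27.3% of the positions of the array but 12 of the 110 members (10.9%, exact 95% binomial interval 5.77% to 18.3%, for counting error only). Members were 1.04% of the positions of these plates, against 3.19% on the other plates. The negative side had 152 of its 272 positions there (55.9%), 13.2% of the positions of these plates, against 3.91% elsewhere. Plate 7 was low in members as well, with 4, and had 11 positions of the negative side, so that few members did not always go with a long negative side.

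Members on plates 4 to 6 together had a median of 1.27, against 1.53 on the other plates. This was not shared by all of these plates or particular to them. The member median was 1.25 on plates 4 and 6 but 1.72 on plate 5, which held 3 members. On plates 7, 9 and 11 it was 1.33, 1.36 and 1.36. Of the 21 members with a mean of at least 2, 1 lay on plates 4 to 6, the uneven member of rank 5. Plate 8 had the most members and the highest median of the plates with over 10 of them (1.83). When the median ratio of each plate was subtracted first, 16 of 104 positions that then met the rule lay on plates 4 to 6 (15.4%), which was still under their 27.3% share of positions, and with a limit of 1.5-fold on the mean it was 49 of 294 (16.7%). Which library was on which plate is not given in the sources used here.

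**Figure D5:**
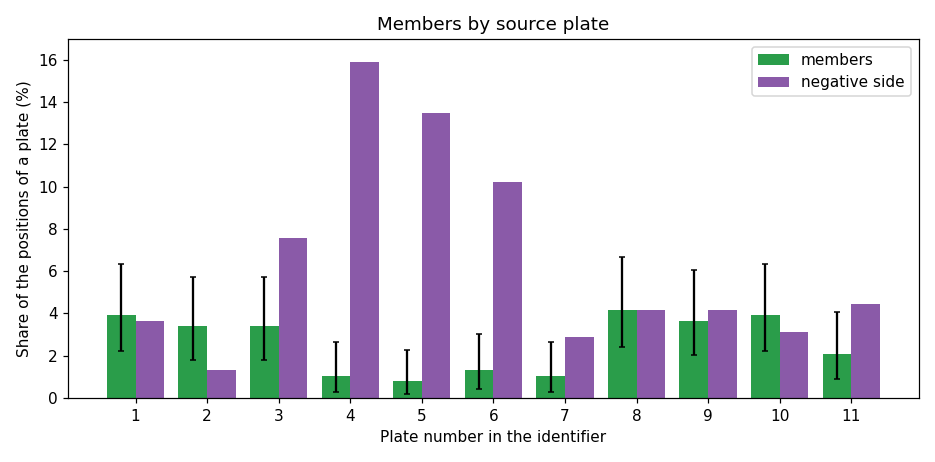
Share of the positions of each plate (vertical axis, %) that were members (left bars, with exact 95% binomial intervals) or belonged to the negative side (right bars), for plates 1 to 11 along the horizontal axis. Members made up 0.781% to 1.3% of plates 4 to 6 and 3.39% to 4.17% of plates 1 to 3 and 8 to 10, while the negative side was 10.2% to 15.9% of plates 4 to 6.

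Within plates, members took between 3 and 12 positions in each of the 16 rows and between 1 and 8 in each of the 24 columns. Wells at the edge of a plate held 16.4% of members and 19.8% of all positions, and odd columns held 57.3% of members and 50% of all positions. When the wells of each plate were divided into 4 interleaved quadrants of odd or even rows and columns, the quadrant of odd rows (A, C and so on) and odd columns held 39 of the 110 members (35.5%) over all plates, and the other quadrants held 22, 24 and 25. The negative side had 71, 68, 69 and 64 positions in the same order. Of the 44 quadrants counted plate by plate, 3 had 7 members each, all of them of odd rows and columns, and 5 had none. Quadrants were compared after the counts had been seen, and no test was made.

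Some members had nearly equal profiles. Among the 5995 pairs of members, 14 pairs, made of 22 members, differed by at most 0.25 on every array, and the closest pair, both on plate 3, by at most 0.15. Of the 14 pairs, 2 lay on one plate. Members in neighbouring wells were not alike in this way. None of their 17 pairs was among the 14, and their largest difference on any array had a median of 1.22, against 1.20 over all pairs of members. Whether positions with equal profiles hold the same transcript cannot be read from these files.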

How the data were processed

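Two-colour hybridisations of compression and opposite xylem RNA were analysed on 8 arrays. The table deposited by the authors holds a log2 ratio of the channels for each spot. The methods give GenePix quantification, normexp background correction and print-tip loess normalisation without scaling between arrays, and the submitters' processing notes name limma 2.14.5 and R 2.7.1. The methods also state that flagged and dim spots were removed, but all 4223 positions carried a value on every array, so dim or control spots may be among them. For the subtractive array, the study describes fewer clones than this, and fewer spots still were kept for its analysis. Positions that it did not use are thus among the 4223 and enter every share of all positions given here. Which positions these are, and whether members are among them, is not known here. Scanner files were not used here, and signal over background does not enter any value. Print-tip loess rests on most spots being unchanged and keeps array medians near 0.

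Groups and tree numbers came from the labels. The sign of the arrays with Cx in Cy5 was changed, and the rule was applied to the 8 turned ratios. Members and lists were chosen with earlier results of these data known. Models were fitted over all 4223 positions with limma 3.58.1 in R 4.3.3 with Benjamini-Hochberg adjustment, two-sided. The xylem contrast used robust regression on 4 tree means, the dye effect used 4 column pair means, and the column pair contrast used the 8 arrays. Each fit was tested on simulated data. Fold changes are powers of 2 of a mean log2 ratio. Pairing by tree number comes from the labels, and deviations of arrays with the same number from their orientation mean correlated between -0.12 and -0.04, so the values themselves did not show it.

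The rule for named positions took the 2 members with the highest mean. Planned gene lists and marker genes were not analysed here, since positions were not joined to gene names. Alternatives were other limits and summaries, array centring and scaling, other units and blocks, and the omission of each replicate number. Scalings of the dye effect, of held-out values and of the order of column pairs, omission of column pairs and omissions in the column pair contrast were added after the data were seen. Figures were drawn with matplotlib 3.10.9.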

Additional observations from a re-analysis of the deposited data

Results flagged for a closer look

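One value stood apart from the others of its group. The member of rank 10, on plate 8, had a mean over both orientations of 2.878 for tree number 3, against 2.35, 2.30 and 2.37 for numbers 1, 2 and 4, a gap that is wide beside the range of the 4 values. It was 1 of 33 groups of 4 values checked in this way, and chance flags about 1 in 20 such groups.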

How the results depend on the processing

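The number of members was 294 with a mean limit of 1.5-fold, 21 with a mean of at least 2, 49 with all 8 ratios at least 1 and 205 on the arrays with Cx in Cy5 alone. It stayed between 108 and 115 when 1 replicate number was left out. The median member level of 1.51 became 1.41 without replicates 1 and 2 and 1.45 without replicates 3 and 4 of Cx in Cy5, and 1.45 to 1.48 without 1 replicate number.

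In the xylem contrast 86 members were called with tree means, 33 with column pair means and 65 to 73 without 1 replicate number. Of all positions, 182, 33 and 76 to 97 were called on the positive side. With the tree number as a replicate block over 8 arrays, 110 members were called, which are all that the rule took, and 298 of all positions (7.06%). The correlation within blocks was estimated at -0.45 in that fit, and a negative value makes the error of a mean smaller. The dye effect called 0 members with column pairs, also without any 1 replicate number, 19 with tree means, 35 with the replicate block and 36 with no block. Of all positions, 968 and 1071 were called in these last fits.

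The column pair contrast called 11 members at an adjusted p limit of 0.001, and 82 of all positions (1.94%). Without replicates 1, 2, 3 and 4 in turn it called 22, 26, 68 and 62 members, and 281, 266, 1282 and 1360 of all positions. Each omission leaves fewer columns for the residual, and the calls fell over all positions as well as among members. The median dye effect of the members was -0.024 with quantile normalisation, -0.08 with equal median absolute deviations and between -0.27 and -0.15 without 1 replicate number. The share of members on plates 4 to 6 was between 10.9% and 12.2% in those omissions and 16.7% with a mean limit of 1.5-fold. The causes were not tested. No main value changed its sign, but the scaling of the arrays turned orders. With equal median absolute deviations, replicates 1 and 2 with Cx in Cy3 had a higher member median than replicates 3 and 4. With quantile normalisation, positions chosen on Cx in Cy3 had a lower median on the held-out arrays (1.36) than on those that chose them (1.45). The number of arrays and the near copies among them limit the precision, and spot brightness is unknown.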
